A study of Mus musculus with 2 samples.

Results

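Cst7, Cst3 and Cstb, the 3 cystatin genes with UMIs in these cortical microglia, are described here. They were chosen by symbol, as 3 of 31053 genes in the files, and were read in barcodes in which 200 or more genes were detected and no more than 10% of UMIs (unique molecular identifiers, each tagging a captured transcript) were mitochondrial. These filters kept 317 of 2000 barcodes in the photoconversion library and 555 of 2000 in the control library. Both libraries came from male 5xFAD hemizygous mice on a C57BL/6J background, aged 5.5 months at collection. These mice carry mutant human amyloid precursor protein and presenilin transgenes under the neuronal Thy1 promoter, and both groups had them. In the photoconversion group, mice aged 4 months received 5 uL of Visudyne, a photosensitiser, into the cisterna magna, and then 5 steps of red light through the skull at 689 nm, a procedure meant to ablate meningeal lymphatic vessels. Control mice received Visudyne alone, without light, so light and vessel ablation cannot be told apart. Treatment was given again 3 weeks later, and cortex was taken 3 weeks after that. Cells that were single, SYTOX-, Ly6G-, CD45+ and CD11b+ were sorted from 3 pooled mice into 1 droplet-based library per group. With no replicate library there was no test. Every difference below is between these 2 libraries, and all intervals are 95% intervals that cover counting error only.

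Cystatins are small proteins that block papain-like cysteine proteases, the family of most lysosomal cathepsins, by plugging the active-site cleft. Cystatin F, encoded by Cst7, is made by immune cells, is sorted to endosomes and lysosomes and is a known inhibitor of cathepsins C and L; its gene belongs to the set that microglia switch on around amyloid plaques. Cystatin C, encoded by Cst3, is secreted and abundant in brain, and cystatin B (stefin B), encoded by Cstb, stays mainly in the cytosol, where it guards against cathepsins that leak from lysosomes. Cathepsins B, L, S and Z, encoded by Ctsb, Ctsl, Ctss and Ctsz, are cysteine proteases, while cathepsin D, encoded by Ctsd, is an aspartic protease that cystatins do not block.

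All 3 are protein-coding genes. In GRCm38 coordinates, Cst7 (ENSMUSG00000068129) lies on the plus strand of chromosome 2 from 150570415 to 150578944. Cst3 (ENSMUSG00000027447) lies on the minus strand of the same chromosome from 148871722 to 148875692, so that 1694722 bp separate its end from the start of Cst7. Cstb (ENSMUSG00000005054) lies on the plus strand of chromosome 10 from 78425669 to 78427622. The stretch around the start sites of Cst7 and Cst3 is shown because the inducible and the constitutive gene had unlike expression patterns in the same cells. Each sequence runs 5′ to 3′ on the gene's strand, from 250 bases before to 50 bases after the start, from RefSeq in GRCm38.p6. The start that RefSeq gives for Cst3 lies inside the gene bounds given above, which come from GENCODE. Capitals mark GGGCGG, the core of a GC box, searched on both strands.

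Cst7, chr2:150570165-150570464 (+): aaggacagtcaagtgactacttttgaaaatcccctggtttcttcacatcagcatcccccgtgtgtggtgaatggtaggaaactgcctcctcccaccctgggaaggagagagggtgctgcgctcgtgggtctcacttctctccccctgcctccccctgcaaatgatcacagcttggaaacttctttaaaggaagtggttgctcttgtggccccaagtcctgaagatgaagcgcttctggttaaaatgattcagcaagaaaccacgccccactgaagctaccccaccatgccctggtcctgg

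Cst3, chr2:148875463-148875762 (-): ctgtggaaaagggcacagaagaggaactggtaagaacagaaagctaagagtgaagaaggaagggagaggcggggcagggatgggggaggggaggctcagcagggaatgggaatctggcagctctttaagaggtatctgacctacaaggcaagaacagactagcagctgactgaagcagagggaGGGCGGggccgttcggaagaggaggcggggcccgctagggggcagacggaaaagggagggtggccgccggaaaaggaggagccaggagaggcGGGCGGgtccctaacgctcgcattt

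Of the 3 genes, 2 matched the RefSeq promoter table. The Cst3 stretch held GGGCGG 2 times and 13 CpG dinucleotides, with a GC content of 60.3%. In the Cst7 stretch GGGCGG was found 0 times, with 5 CpG dinucleotides and a GC content of 53.3%. Of 32851 promoters of the same length in the table, 35.7% held GGGCGG on either strand, and the median promoter had 7 CpG dinucleotides and a GC content of 52.7%. The letters TATAAA, searched on both strands, were in neither stretch and in 13.6% of all promoters. These are descriptions of letters, not of bound sites.

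The libraries held 2038693 UMIs in the photoconversion group and 2672902 in the control group, of which 1816177 and 2422711 were in kept cells. Kept photoconversion cells were deeper, with a median of 3410 UMIs and 1120 genes, against 2670 UMIs and 922 genes in control cells. All 8 microglial markers of the list used were detected in each library, at a summed 52684 CPM (UMIs scaled to a fixed library total) after photoconversion and 53856 CPM in the control. Clusters were made without cystatin or cathepsin genes, and those called microglia-like held 292 photoconversion cells (92.1%) and 509 control cells (91.7%). The remaining cells fell into a cluster led by Acta2, which also carried astrocyte and mural genes and stayed unnamed, a small endothelial- and mural-like cluster, and an unnamed cluster led by Plac8, with 0 photoconversion and 8 control cells. Over kept cells endothelial and mural markers summed to 2050 UMIs after photoconversion and 2814 in the control, monocyte markers to 29 and 190, and border macrophage markers to 12 and 82. The libraries shared 27 barcodes, of which 0 were kept cells.

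Cst3 was the most abundant transcript of both libraries, Cst7 was among the abundant genes, and Cstb was modest. Cst3 had 97200 UMIs or 53519 CPM (53183 to 53857) after photoconversion, against 134699 UMIs or 55599 CPM (55302 to 55896) in the control. It ranked 1 among all genes in each library, and Ctsd ranked 2. Cst7 had 6600 UMIs or 3634 CPM (3547 to 3723) after photoconversion, at rank 49, against 7338 UMIs or 3029 CPM (2960 to 3099) in the control, at rank 55. Cstb had 585 UMIs or 322 CPM (297 to 349) after photoconversion and 823 UMIs or 340 CPM (317 to 364) in the control. UMIs were not divided by gene length, so these ranks order tagged transcripts only.

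Between the libraries, Cst7 was the member that differed most. Its CPM ratio, photoconversion over control, was 1.2 (1.16 to 1.24). The ratio of Cst3 was 0.963 (0.955 to 0.971), and it crossed to 1.004 under edgeR's TMM and 1.001 under median-of-ratios scaling, so no direction is given for it. That of Cstb was 0.948 (0.851 to 1.06), an interval that includes no difference. Of the 3 cystatins, 1 had a ratio of at least 1.1 and 0 had a ratio of 1/1.1 or less. Among 4009 genes with at least 100 UMIs, 19.7% reached the higher fold and 38.5% the lower one, and their median log2 ratio was -0.06. Of those genes 90.2% had a lower ratio than Cst7, 51.2% a lower ratio than Cst3 and 47.3% a lower ratio than Cstb, so only Cst7 stood away from the middle of the genes. Without the 5% of cells with the most UMIs of Cst7 in each library, its log2 ratio was 0.49, against 0.26 over all kept cells. The share of disease-associated-like cells and of their UMIs, given below, was also higher after photoconversion. The part of that share in the Cst7 ratio was not tested.

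The cathepsins differed less than Cst7. All 5 had ratios inside the 1.1-fold limits, with 0 of 5 past the fold in either direction and a median log2 ratio of 0.02. Ctsd stood at 19191 CPM after photoconversion and 18916 CPM in the control, a ratio of 1.01 (1.0005 to 1.03). Ctss, the elastin-cleaving cathepsin S of phagocytes, had a ratio of 1.03 (1.005 to 1.05) and Ctsz, a carboxypeptidase, 1.01 (0.980 to 1.04). Those of Ctsb and Ctsl were 0.959 (0.935 to 0.985) and 0.938 (0.904 to 0.973).

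The wider cathepsin list, which also holds the asparaginyl protease legumain, lay lower. Of its 10 genes, 7 had at least 20 UMIs, and 0 of these reached the higher fold and 5 the lower fold, with a median log2 ratio of -0.25. Among all genes with at least 20 UMIs, 28% reached the higher and 41.5% the lower fold. Legumain, encoded by Lgmn and bound by cystatin C at a site apart from the papain-like one, stood at 2279 CPM after photoconversion and 2920 CPM in the control, a ratio of 0.781 (0.751 to 0.811). Ctsc, which encodes cathepsin C, the protease that activates granule serine proteases, stood at 271 CPM after photoconversion and 343 CPM in the control, a ratio of 0.792 (0.707 to 0.887). Ctsf had a ratio of 0.749 (0.630 to 0.890), Ctso 0.841 (0.669 to 1.05) and Ctsa, a serine carboxypeptidase, 0.906 (0.852 to 0.962). The aminopeptidase gene Ctsh had 1.03 (0.962 to 1.096), and Ctse, with 11 UMIs after photoconversion and 15 in the control, 0.978 (0.406 to 2.28). No other cystatin was seen: 20 further cystatin-family genes of the list had 0 UMIs in kept cells of both libraries. A count of 0 allows 3 UMIs per gene, or 1.65 CPM after photoconversion and 1.24 CPM in the control.

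**Figure D1:**
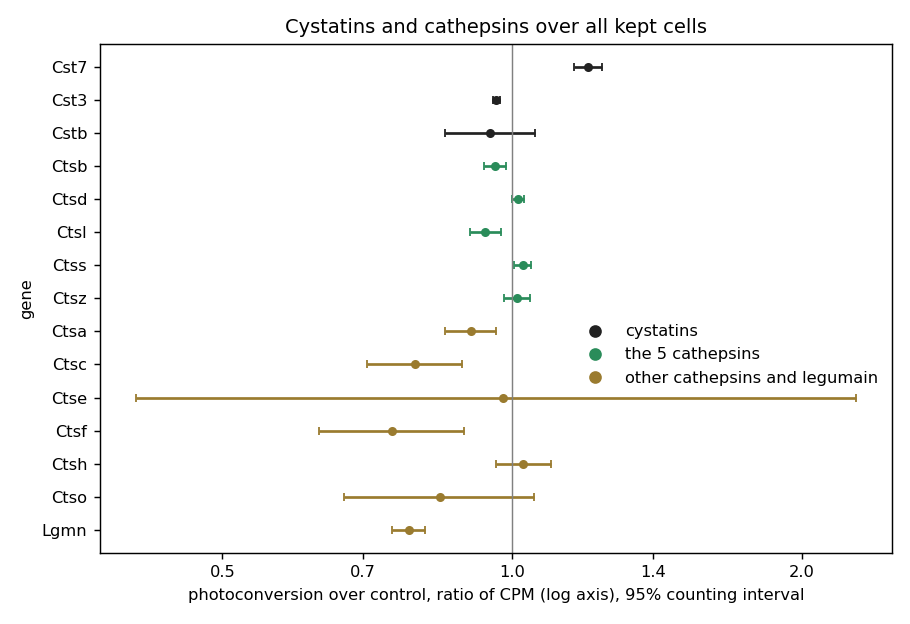
Ratio of CPM over kept cells, photoconversion over control, for the 3 cystatins, the 5 cathepsins and the other cathepsins and legumain with at least 20 UMIs; the x axis is logarithmic and bars are 95% counting intervals. Cst7 lies at 1.2, the 5 cathepsins lie between 0.938 and 1.03, and Lgmn and Ctsc lie at 0.781 and 0.792.

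Set against the protease transcripts, Cst7 differed between the libraries, while the values of Cstb were within counting error of each other. Per 100 UMIs of the 5 cathepsins, kept cells held 9.07 Cst7 UMIs (8.84 to 9.30) after photoconversion and 7.58 (7.40 to 7.76) in the control. They held 134 Cst3 UMIs (132 to 135) after photoconversion and 139 (138 to 140) in the control, a quotient that no scaling of the libraries alters. Cstb stood at 0.804 (0.739 to 0.872) after photoconversion and 0.850 (0.793 to 0.911) in the control, with overlapping intervals. Cst3 UMIs per 100 cathepsin UMIs numbered 102 (100.5 to 103) in disease-associated-like cells after photoconversion and 90.3 (89.3 to 91.4) in the control, and 242 (237 to 246) and 254 (250.2 to 258) in homeostatic-like cells. Cst3 thus outnumbered the 5 cathepsins together over kept cells, but not in disease-associated-like control cells.

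The cystatins were found in unlike shares of cells, in the order of their levels. These shares do not separate the inducible Cst7 from the constitutive Cst3 and Cstb. To compare cells at equal depth, each microglia-like cell was thinned to 1000 UMIs, which left 259 photoconversion cells and 414 control cells and dropped 33 and 95 shallower ones. Cst3 was found in 100% of these cells in both libraries, with a median of 58 UMIs and a range of 8 to 284 after photoconversion, and a median of 66 and a range of 5 to 247 in the control. Cst7 was found in 58.7% of photoconversion cells (52.4 to 64.8%) and 55.3% of control cells (50.4 to 60.2%). Those intervals overlap. The gap varied with the depth chosen. Thinned to 500 UMIs, 48.1% of 283 photoconversion cells (42.1 to 54.0%) and 38.3% of 475 control cells (33.9 to 42.9%) had a Cst7 UMI. The intervals at 500 UMIs overlap only narrowly. Thinned to 2000 UMIs, 76.6% of 222 photoconversion cells (70.4 to 82.0%) and 74.0% of 319 control cells (68.8 to 78.7%) had one. Unthinned, the shares were 75.7% after photoconversion and 66.2% in the control, in cells with median depths of 3721 and 2818 UMIs. At 1000 UMIs, the depth used from here on, the median thinned cell had 1 Cst7 UMI in each library. The cell at the 90th percentile had 7 after photoconversion and 6 in the control, and the richest cell had 21 and 22. Cstb was found in 19.3% of thinned photoconversion cells (14.7 to 24.7%) and 21.0% of thinned control cells (17.2 to 25.3%), with at most 2 and 4 UMIs.

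Endothelial- and mural-like cells, which should lack Cst7, give a background for such shares, though they were few. Unthinned, 33.3% of 3 photoconversion cells and 50% of 6 control cells of that cluster had a Cst7 UMI, at median depths of 3309 and 1554 UMIs. They held 2 Cst7 UMIs in all after photoconversion and 3 in the control. Of 8 Plac8-led control cells, 25% had a Cst7 UMI before thinning and 0 after it. Shares were higher in the Acta2-led cluster, where 81.8% of 11 thinned photoconversion cells and 71.4% of 14 thinned control cells had one. All endothelial- and mural-like cells had a Cst3 UMI too, at 9234 CPM (7127 to 11770) after photoconversion and 7943 CPM (6612 to 9464) in the control. Whether these were their own transcripts or free RNA was not tested, so the share of 100% for Cst3 has no background here.

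Cst7 was spread more unevenly than Cst3 by the coefficient of variation, but not by the variance over the mean. In thinned cells the variance over the mean was 4.64 for Cst7 after photoconversion and 4.15 in the control, 24.0 and 23.9 for the far more abundant Cst3, and 1.13 and 1.1997 for Cstb. The coefficient of variation was 1.35 for Cst7 after photoconversion and 1.42 in the control, against 0.60 and 0.58 for Cst3 and 2.19 and 2.16 for the sparse Cstb. The richest 10% of thinned cells held 40.9% of Cst7 UMIs after photoconversion and 43.5% in the control, against 23.6% and 22.8% of Cst3 UMIs and 60.7% and 57.5% of Cstb UMIs. The relative measures are highest for the gene with the fewest UMIs, so they do not rank the genes apart from their level. All 3 cystatins were found together in 33 photoconversion cells (12.7%) and 57 control cells (13.8%). Cst7 outnumbered Cst3 in 1 photoconversion cell and 0 control cells. Before thinning, a single control cell held 53 of the 823 control Cstb UMIs, and the richest photoconversion cell held 21.

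**Figure D2:**
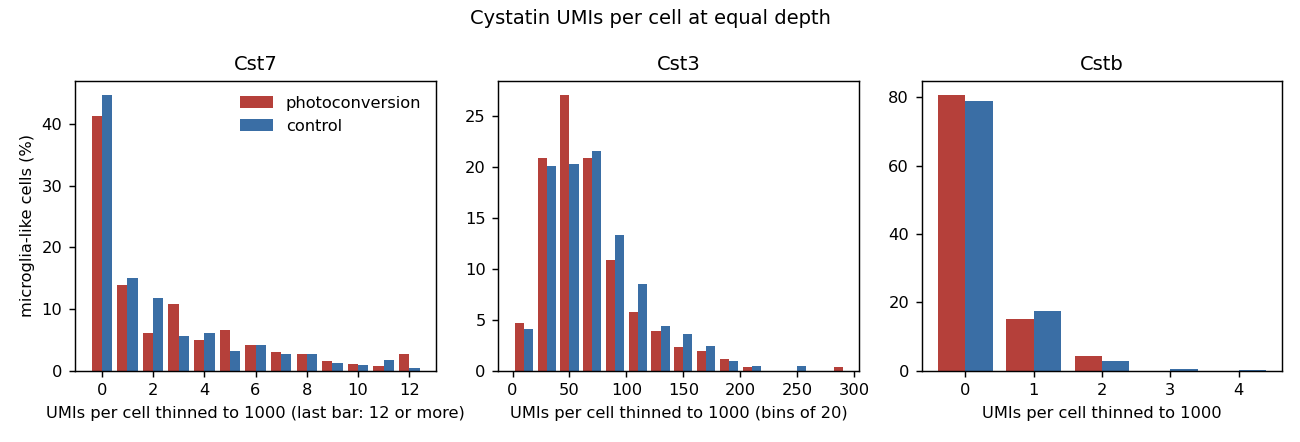
Share of microglia-like cells (y axis, %) with each number of Cst7, Cst3 or Cstb UMIs (x axis) after thinning every cell to 1000 UMIs, for 259 photoconversion and 414 control cells; Cst3 is in bins of 20 UMIs and the last Cst7 bar holds cells with 12 or more. Cst7 has its tallest bar at 0 UMIs and a long tail, Cst3 is present in every cell with medians of 58 and 66 UMIs, and Cstb is at 0 UMIs in most cells.

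Between disease-associated-like and homeostatic-like microglia, Cst7 and Cst3 differed in opposite directions. Microglia-like clusters were sorted by lists of disease-associated and homeostatic genes into disease-associated-like cells (103 after photoconversion and 136 in the control), homeostatic-like cells (119 and 255) and cells that stayed unnamed (70 and 118). The unnamed cells were poor in the nuclear RNA Malat1, at 983 CPM after photoconversion and 674 CPM in the control, against 28504 and 29730 CPM in homeostatic-like cells. Cst7 stood at 4601 CPM (4480 to 4724) in disease-associated-like cells after photoconversion and 4395 CPM (4284 to 4509) in the control. In homeostatic-like cells it stood at 588 CPM (514 to 669) after photoconversion and 368 CPM (324 to 417) in the control. The unnamed cells held Cst7 at 4291 CPM (4003 to 4595) after photoconversion and 3565 CPM (3359 to 3781) in the control. A high Cst7 level was thus not particular to disease-associated-like cells. Disease-associated-like over homeostatic-like, the level of Cst7 was 7.83 times as high (6.86 to 8.97) after photoconversion and 11.9 times as high (10.5 to 13.6) in the control.

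Cst3 ran the other way, with 44648 CPM in disease-associated-like cells and 86612 CPM in homeostatic-like cells after photoconversion. In the control these were 42595 and 86154 CPM. Its level in disease-associated-like cells was thus 0.515 (0.509 to 0.523) of that in homeostatic-like cells after photoconversion and 0.494 (0.489 to 0.5002) in the control. Cstb went with Cst7 but by less, at 1.87 (1.45 to 2.43) after photoconversion and 2.82 (2.28 to 3.53) in the control. The control cell with 53 Cstb UMIs was disease-associated-like. Disease-associated-like cells were also the deepest, with medians of 11525 UMIs after photoconversion and 9124 in the control, against 2590 and 1974 in homeostatic-like cells. The part of depth in these contrasts was not tested.

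The cathepsins divided between the patterns of Cst7 and Cst3. Disease-associated-like over homeostatic-like, Ctsb was 1.80 times as high (1.70 to 1.90) after photoconversion and 2.07 times (1.98 to 2.17) in the control, Ctsd 1.48 (1.44 to 1.52) and 1.65 (1.61 to 1.68), and Ctsz 1.52 (1.42 to 1.62) and 1.55 (1.47 to 1.63). Ctss was lower in disease-associated-like cells, at 0.725 (0.701 to 0.751) after photoconversion and 0.807 (0.784 to 0.831) in the control. Ctsl was even after photoconversion, at 0.996 (0.931 to 1.07), and higher in the control, at 1.34 (1.27 to 1.42). None of the 5 differed between the states by as much as Cst7.

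The division of cystatin transcripts over the states therefore differed by gene. Disease-associated-like cells made up 32.5% of kept cells (27.4 to 38.0%) and 65.6% of their UMIs after photoconversion, against 24.5% (21.0 to 28.3%) and 55.4% in the control. They held 83.1% of Cst7 UMIs after photoconversion and 80.4% in the control, 54.7% and 42.5% of Cst3 UMIs, and 70.8% and 68.4% of Cstb UMIs. Homeostatic-like cells held 3.50% of Cst7 UMIs after photoconversion and 3.38% in the control, but 35.02% and 43.1% of Cst3 UMIs. Per 100 Cst3 UMIs there were 10.3 Cst7 UMIs in disease-associated-like cells of each library, and 0.679 after photoconversion and 0.428 in the control in homeostatic-like cells.

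**Figure D3:**
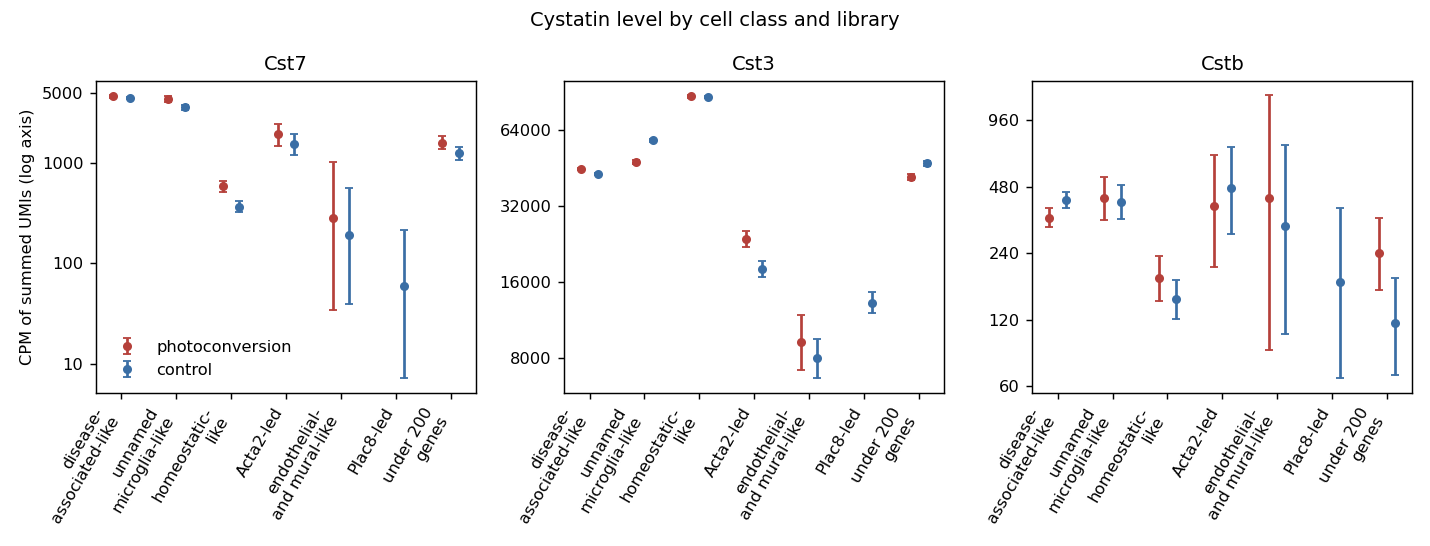
CPM of Cst7, Cst3 and Cstb (logarithmic y axes) in each cell class and in barcodes with under 200 genes, photoconversion left of control in each pair, with 95% counting intervals; no photoconversion cell was in the Plac8-led cluster. Cst7 lies at 4601 and 4395 CPM in disease-associated-like cells and at 588 and 368 CPM in homeostatic-like cells, while Cst3 is highest in homeostatic-like cells, at 86612 and 86154 CPM.

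Within states the Cst7 difference between the libraries was uneven. In disease-associated-like cells, which held most Cst7, the ratio of photoconversion over control was 1.05 (1.01 to 1.09), and 1.03 (0.985 to 1.07) without the richest 5% of cells. It was 1.204 (1.098 to 1.32) in unnamed microglia-like cells, at 4291 CPM after photoconversion and 3565 CPM in the control. In homeostatic-like cells it was 1.60 (1.33 to 1.92), on 231 photoconversion UMIs and 248 control UMIs, and 1.36 (1.08 to 1.71) without the richest 5% of cells. At equal depth 29.4% of homeostatic-like photoconversion cells and 26.9% of control cells had a Cst7 UMI, against 85.4% and 80.5% of disease-associated-like cells. The homeostatic-like cells then averaged 0.441 Cst7 UMIs after photoconversion and 0.396 in the control, relatively closer than their summed CPM. Cst7 in disease-associated-like cells changed side with the clustering: at Leiden resolution 1.2, where 74 photoconversion and 87 control cells were so named, its ratio was 0.978 (0.938 to 1.02), so no direction is given for that state. At resolutions of 0.5 and 1.2 the ratio in the homeostatic-like state was 1.59 and 1.65, and in unnamed cells 1.22 and 1.21. The unnamed cells were not the same set at resolution 1.2. They then numbered 94 after photoconversion and 150 in the control, against 70 and 118 at 0.8.

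The Cst7 level of homeostatic-like cells lay within the wide counting intervals of the few cells that should lack it. Endothelial- and mural-like cells stood at 284 CPM (34.4 to 1026) after photoconversion and 191 CPM (39.3 to 557) in the control, intervals that take in the homeostatic-like values. Barcodes with fewer than 200 genes, 1608 after photoconversion and 1340 in the control, held Cst7 at 1596 CPM (1381 to 1834) after photoconversion and 1247 CPM (1072 to 1441) in the control. Per 100 Cst3 UMIs those barcodes held 3.84 Cst7 UMIs after photoconversion and 2.65 in the control, and endothelial- and mural-like cells 3.08 and 2.40. Whether the Cst7 UMIs of homeostatic-like cells came from these cells or from free RNA was not tested. The Plac8-led control cells held 2 Cst7 UMIs, or 59.1 CPM (7.16 to 214), and Cst3 at 13214 CPM. The Acta2-led cells, also outside the microglia-like class, held more Cst7 than homeostatic-like cells. They stood at 1924 CPM (1482 to 2457) after photoconversion and 1533 CPM (1191 to 1944) in the control. Per 100 Cst3 UMIs they held 8.16 and 8.53 Cst7 UMIs. The source of these UMIs was not tested.

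Cst3 and Cstb showed other patterns within states. The Cst3 ratio was 1.05 (1.04 to 1.06) in disease-associated-like cells and 1.01 (0.992 to 1.02) in homeostatic-like cells. In unnamed microglia-like cells it was 0.821 (0.801 to 0.842), at 47625 CPM after photoconversion and 57979 CPM in the control, 0.771 (0.749 to 0.793) without the richest 5% of cells, and 0.956 (0.940 to 0.971) at Leiden resolution 1.2. In disease-associated-like cells that exclusion brought it to 0.996 (0.983 to 1.01). Cstb had a ratio of 0.829 (0.728 to 0.942) in disease-associated-like cells, and 0.899 (0.776 to 1.04) without the richest 5% of cells. It had 1.05 (0.784 to 1.39) in unnamed and 1.25 (0.912 to 1.71) in homeostatic-like cells, where 73 photoconversion and 100 control UMIs leave a wide interval.

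Disease-associated-like cells fell into 2 clusters, and homeostatic-like cells into 2 others, which differed in Cst3 and Cstb. A cluster of 32 cells led by the MHC class II genes H2-Eb1 and H2-Ab1 had Cst7 at 4157 CPM (3785 to 4555) and Cst3 at 52855 CPM over both libraries. The larger disease-associated-like cluster of 207 cells had Cst7 at 4507 CPM (4423 to 4592) and Cst3 at 43137 CPM. Cstb stood at 181 CPM (111 to 280) in the class II-led cluster and 395 CPM (370 to 421) in the larger one. Median depth was 3273.5 UMIs in the class II-led cluster and 11164 in the larger one, and its part in these differences was not tested. Among homeostatic-like cells, 201 shallow cells with a median of 1396 UMIs had Cst3 at 112398 CPM, and 173 cells with a median of 4235 UMIs had it at 75768 CPM. Cstb stood at 91.1 CPM (60.6 to 132) in the shallow cells and 191 CPM (161 to 225) in the deeper ones. Their Cst7 was closer, at 495 CPM (419 to 580) and 431 CPM (385 to 480).

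Cell by cell, Cst7 was high where Cst3 was low. Across thinned microglia-like cells Spearman's rho between them was -0.46 after photoconversion (259 cells) and -0.49 in the control (414 cells). These and the following correlations describe cells that share a library, so no p is given. Cst7 was also higher in cells that had been deeper before thinning, with a rho of 0.48 after photoconversion and 0.36 in the control, and Cst3 lower, with -0.32 and -0.39. The relation was present in cells with at least 5000 UMIs (-0.48 after photoconversion and -0.43 in the control) and in shallower cells (-0.37 and -0.40). Within states it was -0.21 and -0.07 in disease-associated-like cells and -0.04 in both libraries in homeostatic-like cells. In unnamed cells it was -0.24 and -0.48, in the control close to the value over all cells.

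Cells grouped by their thinned Cst7 count show the same data as levels. Cst3 averaged 83.1 ± 46.9 UMIs (SD over 107 cells) in photoconversion cells with 0 Cst7 UMIs, 70.9 ± 34.0 with 1 to 2 (52 cells), 51.4 ± 25.1 with 3 to 5 (58 cells) and 40.3 ± 16.5 with 6 or more (42 cells). In control cells the same ranges gave 87.7 ± 42.6 (185 cells), 73.9 ± 40.2 (111 cells), 48.8 ± 27.3 (61 cells) and 40.9 ± 18.2 (57 cells). The mean of Cst3 was thus lower in each higher range of Cst7 in both libraries, with spreads over cells that overlapped. Most cells of the lower 3 ranges had a count next to a boundary, and 11 of 42 photoconversion and 17 of 57 control cells of the highest range did. Median depth before thinning was 2960 UMIs in the lowest range and 9757 in the highest after photoconversion, and 2852 and 10258 in the control.

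The 5 cathepsins did not follow Cst7 alike. Ctsd averaged 14.1 ± 9.41 UMIs in photoconversion cells with 0 Cst7 UMIs and 28.0 ± 15.6 in those with 6 or more, and 14.9 ± 9.48 and 28.5 ± 17.8 in control cells. Ctsb averaged 3.99 and 6.17 at these ends after photoconversion and 3.70 and 7.63 in the control, and Ctsz 3.24 and 5.07, and 3.21 and 5.26. Ctss averaged less in the highest range, at 11.2 and 8.45 after photoconversion and 11.6 and 8.37 in the control. Ctsl averaged 2.86 and 2.74 after photoconversion, but 2.68 and 4.25 in the control. Summed over the 5, cathepsin UMIs averaged 35.4 ± 19.97 in the lowest and 50.4 ± 24.6 in the highest Cst7 range after photoconversion, and 36.1 ± 16.9 and 54.0 ± 28.4 in the control, so cells rich in Cst7 also had more cathepsin transcripts, mostly of Ctsd.

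**Figure D4:**
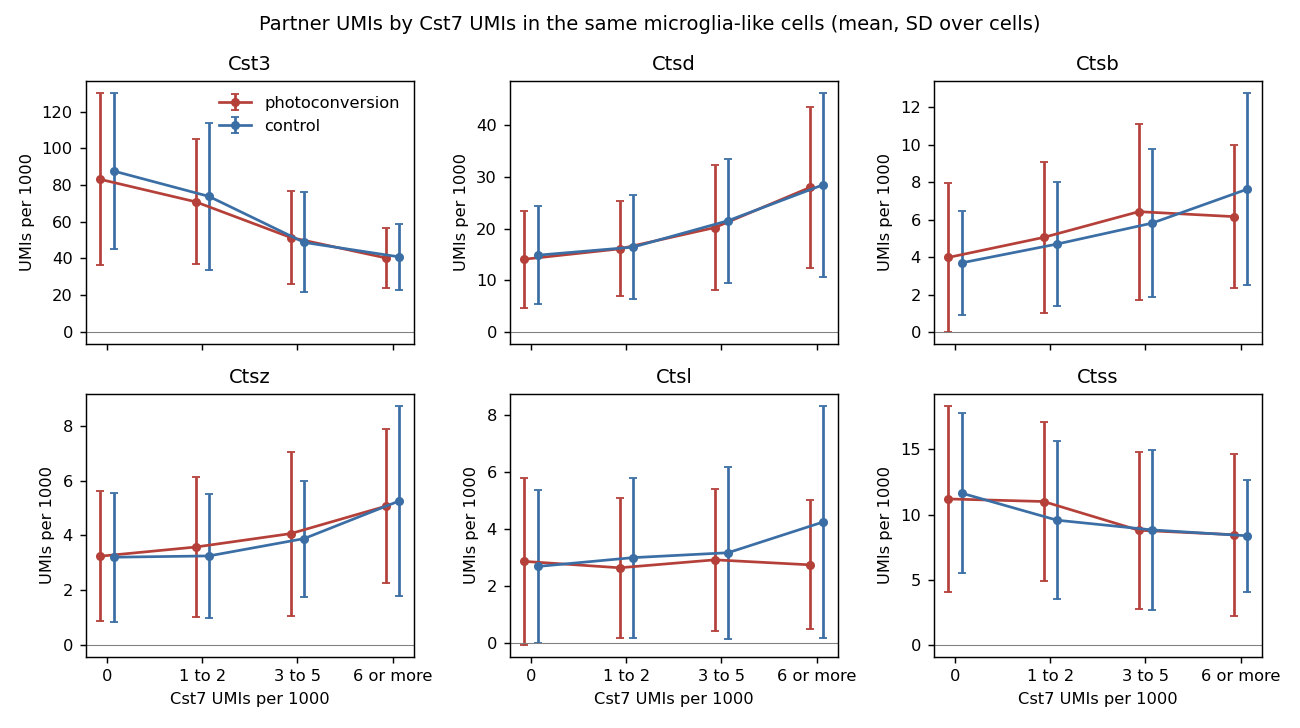
Mean UMIs of Cst3 and of each cathepsin (y axes, per cell thinned to 1000 UMIs) in microglia-like cells grouped by their Cst7 UMIs (x axis), with bars of 1 SD over cells, some of which reach below 0, and photoconversion left of control in each pair. Cst3 has means of 83.1 and 87.7 in cells with 0 Cst7 UMIs and 40.3 and 40.9 in cells with 6 or more, whereas Ctsd has 14.1 and 14.9, and 28.0 and 28.5.

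As correlations across thinned cells, Cst7 had its highest rho among the 5 with Ctsd, 0.40 after photoconversion and 0.35 in the control, and then with Ctsb (0.30 and 0.33) and Ctsz (0.23 and 0.21). Within disease-associated-like cells the rho with Ctsd was 0.46 after photoconversion (103 cells) and 0.51 in the control (133 cells), and in unnamed cells 0.47 (54 cells) and 0.48 (84 cells). In homeostatic-like cells, most of which had 0 Cst7 UMIs, it was 0.08 (102 cells) and 0.09 (197 cells), which is no finding at such counts. In cells of at least 5000 UMIs it was 0.58 after photoconversion and 0.62 in the control, and in shallower cells 0.19 and 0.14. With Ctss, Cst7 had a rho of -0.18 after photoconversion and -0.23 in the control, and within disease-associated-like cells 0.01 and 0.00. With Ctsl it had 0.06 and 0.13. Among proteases known as targets of cystatin F outside these 5, Lgmn had a rho with Cst7 of -0.44 after photoconversion and -0.43 in the control. With Ctsc rho was -0.11 after photoconversion and -0.13 in the control. Ctsc averaged only 0.37 and 0.40 UMIs per thinned cell, so no relation is read from it.

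Cst3 went with Ctss and Lgmn. Its rho with Ctss was 0.52 after photoconversion and 0.45 in the control, and between 0.36 and 0.50 within each of the 3 states of either library. With Lgmn it was 0.56 after photoconversion and 0.47 in the control, and 0.19 and 0.16 within disease-associated-like cells. With Ctsd it was 0.03 after photoconversion and -0.03 in the control, and with Ctsb -0.02 and -0.18. Against the summed cathepsins Cst3 had 0.17 after photoconversion and 0.09 in the control, and Cst7 0.26 and 0.24. Both depended on depth. In cells with at least 5000 UMIs Cst3 had -0.18 after photoconversion and -0.29 in the control and Cst7 0.52 and 0.60, and in shallower cells Cst3 had 0.41 and 0.32 and Cst7 0.06 and 0.0078. Cstb, at about 0 or 1 UMI per thinned cell, had no rho beyond 0.20 with any of the 5 cathepsins or the other cystatins, and no relation is read from it.

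**Figure D5:**
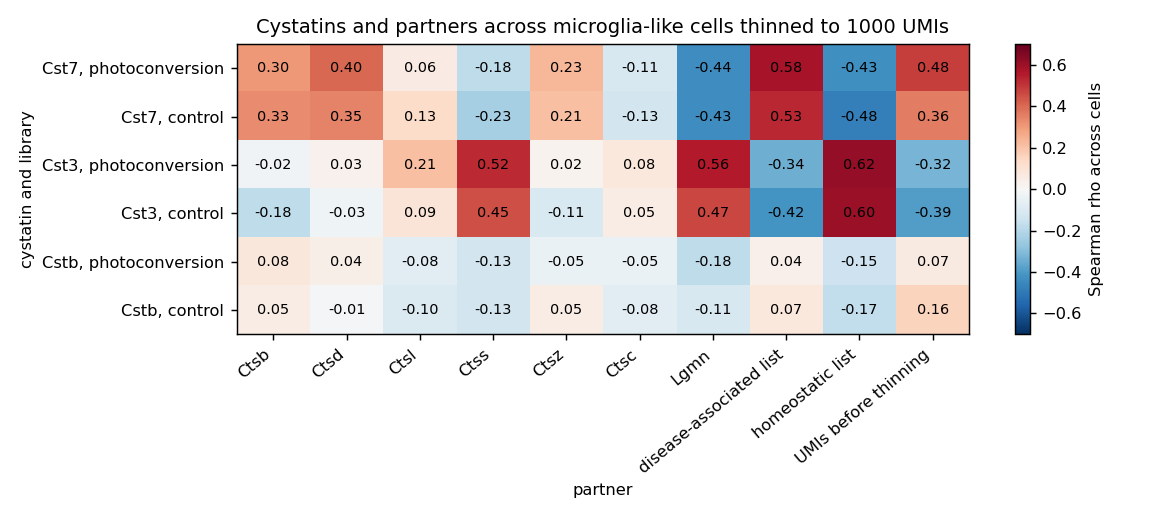
Spearman's rho (colour and printed value) of each cystatin in each library (rows) with cathepsins, legumain, marker lists and depth before thinning (columns), across 259 photoconversion and 414 control microglia-like cells thinned to 1000 UMIs. Cst7 and Cst3 have opposite signs for the disease-associated list (0.58 and 0.53 against -0.34 and -0.42), the homeostatic list and depth, and Cstb values lie near 0.

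Among 802 genes detected in at least 10% of thinned cells of each library, the pattern over cells most like that of Cst7, by the mean rho of both libraries, was that of Tyrobp (0.59), the signalling adaptor of Trem2. Apoe (0.48), a lipid carrier, Cd52 (0.46), Lyz2 (0.44), which encodes lysozyme, and Gnas (0.42), a G protein subunit gene, followed. The least like were Cst3 (-0.47), the nuclear RNA Malat1 (-0.47) and the purinergic receptor gene P2ry12 (-0.46). Among the genes most like Cst3 were P2ry12 (0.55), Selplg (0.53), Lgmn (0.51) and C1qa (0.51), and Ctss came at position 8. Its least like genes were the ferritin chains Fth1 (-0.52) and Ftl1 (-0.51), and Cst7. In that order for Cst7, Ctsd came at position 10, Ctsb at 15, Ctsz at 30, Ctsl at 170 and Ctss at 757 of the 802 genes. For Cstb the highest mean rho was 0.17 with Ftl1, followed by Pgam1, Akr1a1, Mif and Fth1 (0.15), and the lowest -0.22 with Serinc3, -0.19 with C1qa and -0.19 with Cst3. These values are too small for such sparse counts to be read as a pattern.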

How the data were processed

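Single-cell RNA was measured in 2 libraries, 1 per group. The deposited matrices give, for each gene in each barcode, a whole-number UMI count that was not normalised, made with Cell Ranger 3.0.2 per the file headers; bcl2fastq and mm10 are named per the submitters' processing notes, and which transcript end was read is not given in the sources used here. The libraries held 2038693 (photoconversion) and 2672902 (control) UMIs. The members, lists and thresholds were chosen with earlier results of these data known.

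Cells of both libraries were clustered together in scanpy 1.11.5 (10000 UMIs per cell, log scale, 2000 variable genes, 20 components, 15 neighbours, Leiden resolution 0.8, seed 1), leaving out the 3 cystatins and all cathepsins. A class name needed 3 of its markers among a cluster's 10 leading genes with a marker leading, or microglial markers detected in 50% of cells on average. A microglial state needed a median log2 fold above 0.5. A cluster low in both states' lists (below -1.5) stayed unnamed. These naming thresholds were set after seeing the data. Doublets were not removed; an alternative leaves out cells above the 99th percentile of UMIs.

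UMIs were summed per library and class and scaled to CPM. Sums carry exact Poisson, shares exact Clopper-Pearson and ratios exact conditional binomial intervals. Correlations used cells thinned to 1000 UMIs (seed 1). The ratio and interval steps were tested on simulated data. Named were the 3 cystatins, the 5 cathepsins, list members with at least 20 UMIs, and for each cystatin the 5 genes with the highest and 3 with the lowest mean rho, leaving out mitochondrial, ribosomal and Gm-number symbols. The values of 1 gene so chosen are not reported here. Marker genes that lead a cluster were named too. Alternatives covered cell filters, scaling (edgeR 4.0.16 TMM, median-of-ratios), thinning depth, clustering resolution and richest cells. The genes Csta2 and Csta3 are not analysed here. Coordinates come from GENCODE for GRCm38, by Ensembl identifier.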

Additional observations from a re-analysis of the deposited data

Results flagged for a closer look

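The Cst3 ratio of photoconversion over control lay on opposite sides of 1 in 2 microglia-like states, at 1.05 in disease-associated-like cells and 0.821 in unnamed microglia-like cells. The difference between the states was not tested, and without the richest 5% of cells the values were 0.996 and 0.771. At Leiden resolution 1.2, where both states held other sets of cells, they were 1.06 and 0.956.

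Among barcodes with fewer than 200 genes, which no comparison of kept cells used, Cst7 and Cstb stood above the control level. The share of all genes that did so in these barcodes was not computed. Cst7 had a ratio of 1.28 (1.04 to 1.57), on 198 photoconversion and 183 control UMIs. Cstb had a ratio of 2.09 (1.12 to 4.04), on 30 and 17 UMIs. Cst3 had 0.884 (0.853 to 0.917) there. Ctsb was also above the control level, at 1.15 (1.01 to 1.31), while the intervals of Ctsd, Ctsl, Ctss and Ctsz included no difference.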

How the results depend on the processing

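The log2 ratio of Cst7, 0.26 over kept cells, was positive under every alternative run on that sum. It was 0.21 without the 10 richest cells of each library (10 of 317 and 10 of 555 cells), 0.32 under edgeR's TMM and 0.32 under median-of-ratios scaling, 0.37 with every cell weighed equally, 0.19 with microglia-like states weighed equally and 0.49 without the richest 5% of cells, an alternative chosen after seeing the data. TMM moved all genes by 0.060 and median-of-ratios by 0.056. The log2 ratio of Cst3, -0.055, turned to 0.0051 under TMM and 0.0014 under median-of-ratios scaling. It was -0.088 at most 5% and -0.036 at most 20% mitochondrial UMIs, -0.078 in microglia-like cells only, -0.12 without the 10 richest cells, -0.021 with mitochondrial and ribosomal genes left out of the total, -0.097 with cells weighed equally, -0.091 in thinned cells and -0.095 without the richest 5% of cells. Cstb, at -0.077, was 0.12 without the richest 5%. Within disease-associated-like cells that exclusion turned the log2 ratio of Cst3 to -0.0063, and Leiden resolution 1.2 turned that of Cst7, 0.066, to -0.032. The rho of Cst3 with summed cathepsins after photoconversion, 0.17, was -0.023 in disease-associated-like cells only, -0.18 in cells of at least 5000 UMIs and 0.52 in homeostatic-like cells. The causes were not tested. Of 12 alternatives of the contrast between states, 7 stayed within counting error, and the other 5 changed size but not direction. With 1 library per group the spread between mice is unknown, and Cstb and the Cst7 of homeostatic-like cells are limited by few UMIs. No paired analysis was possible because each group had 1 library.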
